A study of Mus musculus with 2 samples.

Results

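Acyl-CoA synthetases and acyl-CoA thioesterases run opposite reactions on fatty acids, and 9 of their genes, of 44291 genes measured in all, were followed here in mouse fibro-adipogenic progenitors (FAPs). The genes were the long-chain synthetases Acsl1, Acsl3, Acsl4 and Acsl5 and the thioesterases Acot1, Acot2, Acot7, Acot9 and Acot13. They were picked out by gene name for their enzyme class and were chosen with their FPKM values in both libraries already known. Their differences between the libraries are therefore given as a description. FPKM is a read count scaled to exon length and to the total of the library, and a log2 fold change is the difference of log2(FPKM + 1) between PRP and control. Among the 9 genes Acsl3 had the lowest log2 fold change, at 4.99 FPKM with PRP and 12.7 FPKM with vehicle. Acot2 had the highest, at 8.84 FPKM with PRP and 3.69 FPKM with vehicle. The other 7 members lay within 1.5-fold of the control on the log2(FPKM + 1) scale.

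A long-chain acyl-CoA synthetase joins a free fatty acid to coenzyme A at the expense of ATP, which traps the chain in the cell and makes it usable for triglyceride and phospholipid synthesis, for oxidation and for chain remodelling. An acyl-CoA thioesterase hydrolyses that bond and returns free fatty acid and coenzyme A. The enzymes of each class sit at different membranes and compartments and prefer different chains, so the balance between them is known to differ from one pool of acyl-CoA to the next. In cells that turn into adipocytes, acyl-CoA made by the synthetases is the substrate for the triglyceride of lipid droplets.

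FAPs are mesenchymal cells of skeletal muscle that can become adipocytes. Both libraries were made from primary FAPs of WT genotype kept in medium with 20% FBS and then exposed to adipogenic induction medium with 0.5 mM IBMX, 0.25 uM dexamethasone and 10 ug/ml insulin. The treated culture received platelet-rich plasma (PRP) and the control culture received vehicle. There was 1 library per group, 2 in all, so no difference has a replicate check, no test across genes was run and no p-value is given. The labels name the treatment PRP, whereas the study's text describes exosomes isolated from PRP of young donors, and the names used here, PRP and control, follow the labels. How many animals gave the cells is not given in the sources used here.

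Assigned reads numbered 40120843 with PRP and 34139741 with vehicle, and 13401 genes reached a mean FPKM of 1 over both libraries. Genes with the name prefix mt-, counted here as mitochondrial, made up 2.06% of all FPKM with PRP and 3.70% with vehicle. Mitochondrial reads assigned to other genes are not in these shares. Of the 9 FAP markers, 8 had a mean FPKM of at least 1 and all 8 had the lower value with PRP, as did 49.1% of the 13401 genes. The list summed to 335.9 FPKM with PRP against 570.0 FPKM with vehicle, and Col1a1 was the highest of the markers at 118.6 and 218.7 FPKM. At least 1.5-fold lower were 4 of them, Col1a1, Gsn, Col3a1 and Dpt, as were 4.57% of the 13401 genes. Lum, also on that list, was near 0 in both libraries. The 7 adipocyte markers summed to 70.3 FPKM with PRP and 59.9 FPKM with vehicle, led by Fabp4 at 40.7 and 33.6 FPKM. Lep and Cidec stayed below 1 FPKM in both libraries. Among the other 5, only Plin1 had the lower value with PRP, at 1.73 and 2.10 FPKM (ratio 0.823, counting interval 0.659 to 1.03). Fabp4 and Pparg were higher beyond counting error, whereas the intervals of Cebpa and Adipoq held a ratio of 1. The summed levels were 18.0 and 14.6 FPKM for the myogenic list, with Acta1 highest at 15.1 and 11.1 FPKM and Pax7 and Myog at 0. They were 10.1 and 10.4 FPKM for the macrophage list, with Lyz2 highest at 4.91 and 7.57 FPKM, Cd68 in the other direction at 4.56 and 2.31 FPKM (ratio 1.98, counting interval 1.41 to 2.82) and Ptprc and Adgre1 near 0. The endothelial list summed to 9.24 and 5.21 FPKM, with Tek highest at 4.73 and 3.56 FPKM, Kdr at 4.23 FPKM with PRP (ratio to control 2.82, counting interval 2.43 to 3.28) and Cdh5 near 0. Platelet and erythroid markers summed to 0.762 and 0.730 FPKM, with Itga2b highest at 0.567 and 0.365 FPKM and Ppbp and Gp9 at 0. The part of these marker levels in the results below was not tested. In a bulk library, fewer cells of a type and less RNA per cell cannot be told apart.

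Sequence matters for reading the Acot values, because Acot1 and Acot2 are neighbouring copies on chromosome 12. Their coding sequences were identical at 1180 of 1239 aligned bases (95.2%). Acot2 carries 123 coding bases ahead of the first coding base of Acot1, and its protein is known as the mitochondrial form whereas that of Acot1 is cytosolic. The 90 coding bases at which the shared part begins are shown for both genes in GENCODE M21 transcripts, with capitals at the 11 bases that differ.
Acot1 coding bases 1 to 90: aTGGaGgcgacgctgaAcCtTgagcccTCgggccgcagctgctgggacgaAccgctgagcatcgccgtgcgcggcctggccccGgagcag
Acot2 coding bases 124 to 213: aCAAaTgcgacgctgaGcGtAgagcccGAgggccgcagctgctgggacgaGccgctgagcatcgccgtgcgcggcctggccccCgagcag

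The last 90 coding bases of the shared part differ at 9 bases, again in capitals. A read that falls between such bases can match both genes.
Acot1 coding bases 1150 to 1239: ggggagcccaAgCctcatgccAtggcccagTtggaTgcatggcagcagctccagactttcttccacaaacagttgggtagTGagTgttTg
Acot2 coding bases 1273 to 1362: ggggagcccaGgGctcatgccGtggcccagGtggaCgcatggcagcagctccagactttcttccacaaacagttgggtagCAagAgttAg

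The promoters of Acsl3 and Acot2, the members that differed most, are shown next, with a window of Acsl1 that was the one window holding a sterol regulatory element, each as the 250 bases before and 50 after the RefSeq start (GRCm38.p6). RefSeq promoters were at hand for 8 of the 9 members, all but Acot13, and Acsl1 had more than 1. Each was searched on both strands for a sterol regulatory element (TCACNCCAC), a nuclear receptor half-site (AGGTCA), the direct repeat of that half-site spaced by 1 base, an NF-Y box (CCAAT), an E-box (CACGTG) and a cAMP response element (TGACGTCA). The longer repeat contains the half-site, and the others do not contain one another. Capitals mark the matches.
Acsl3, chr1:78657575-78657874, plus strand: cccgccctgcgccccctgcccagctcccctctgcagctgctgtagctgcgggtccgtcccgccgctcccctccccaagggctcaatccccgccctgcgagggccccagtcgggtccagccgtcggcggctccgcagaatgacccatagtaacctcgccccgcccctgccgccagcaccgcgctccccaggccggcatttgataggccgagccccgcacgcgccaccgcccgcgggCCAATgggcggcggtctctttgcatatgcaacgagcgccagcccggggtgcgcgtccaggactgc
Acot2, chr12:83987611-83987910, plus strand: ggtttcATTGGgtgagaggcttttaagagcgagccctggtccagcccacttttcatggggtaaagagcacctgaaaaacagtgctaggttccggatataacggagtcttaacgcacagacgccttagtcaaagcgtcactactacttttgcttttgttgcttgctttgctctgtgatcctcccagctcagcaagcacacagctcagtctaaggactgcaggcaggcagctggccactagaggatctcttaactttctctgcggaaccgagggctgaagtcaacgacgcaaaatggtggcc
Acsl1, start inside the gene, chr8:46490716-46491015, plus strand: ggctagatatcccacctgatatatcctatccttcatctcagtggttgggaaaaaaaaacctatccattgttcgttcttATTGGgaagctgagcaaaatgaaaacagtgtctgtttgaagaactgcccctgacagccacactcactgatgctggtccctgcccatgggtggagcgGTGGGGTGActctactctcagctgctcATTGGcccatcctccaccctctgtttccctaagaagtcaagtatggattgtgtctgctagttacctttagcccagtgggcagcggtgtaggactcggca

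In the Acsl3 window the single match was an NF-Y box that began 15 bases before the start, and 74% of the window was G or C, against a median of 52.7% over 32851 promoters. In the Acot2 window the single match was an NF-Y box 244 bases before the start. The Acsl1 window held a sterol regulatory element 76 bases before the start and NF-Y boxes 172 and 49 bases before it, whereas the window at the first start of Acsl1 held no match. NF-Y boxes lay 79 bases before the start of Acot1, 117 before that of Acsl5 and 63 before that of Acot9, and the windows of Acsl4 and Acot7 held none of the motifs. The windows of Acsl5 and Acot7 lie at starts inside their gene models, so the first starts of these genes were not searched. No member's window held a half-site, its repeat, an E-box or a cAMP response element. Of all promoters in the table, 1.24% held the sterol regulatory element, 37.4% the NF-Y box, 16.3% the half-site, 0.0396% its repeat, 7.15% the E-box and 1.79% the cAMP response element. A match describes the letters in the window and shows no binding.

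Each member was located on mm10 (GRCm38) with the GENCODE M21 gene models. Acsl3 (ENSMUSG00000032883) spans chr1:78657825-78707743 on the plus strand, Acsl1 (ENSMUSG00000018796) spans chr8:46471037-46536051 on the plus strand, Acsl4 (ENSMUSG00000031278) spans chrX:142317993-142390535 on the minus strand, and Acsl5 (ENSMUSG00000024981) spans chr19:55251938-55297720 on the plus strand. Acot2 (ENSMUSG00000021226) spans chr12:83987861-83993873 and Acot1 (ENSMUSG00000072949) spans chr12:84009490-84018371, both on the plus strand. Acot7 (ENSMUSG00000028937) spans chr4:152178134-152271855 and Acot9 (ENSMUSG00000025287) spans chrX:155262443-155297654, both on the plus strand, and Acot13 (ENSMUSG00000006717) spans chr13:24817948-24831540 on the minus strand. The values below are FPKM over all exons of a gene, so exonic and UTR reads enter each of them alike.

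Among the synthetases, Acsl3 differed from the control and the other 3 members stayed close to it. ACSL3 is the synthetase of the endoplasmic reticulum and of nascent lipid droplets. Its level was 4.99 FPKM from 873 reads with PRP and 12.7 FPKM from 1887 reads in the control library. The level in the PRP library was thus the lower one although that library was sequenced more deeply. The FPKM ratio of PRP to control was 0.394, with an exact Clopper-Pearson 95% interval of 0.351 to 0.441, and the log2 fold change on the log2(FPKM + 1) scale was -1.19. That interval, like all those that follow, covers counting error only, takes reads as mates of a pair and compares 2 libraries, not treatments. Acsl3 stood at place 64 from the lowest of the 13401 genes that averaged at least 1 FPKM. Of these genes, 72.3% had a control level below that of Acsl3, and 47.7% had a PRP level below that of Acsl3. Part of its exon sequence, 5.60%, overlaps Utp14b on the same strand, and how reads there were assigned is not given in the sources used here.

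ACSL4, which prefers arachidonate and other polyunsaturated chains, had the highest FPKM of the 4 in both libraries by summed exon length, though with PRP not by the length of 1 coding transcript, where Acsl5 was higher. Acsl4 was at 13.4 FPKM with PRP and 15.2 FPKM with vehicle, from 2906 and 2809 reads, a ratio of 0.880 (95% interval 0.817 to 0.948). The difference was beyond counting error and small beside that of Acsl3. ACSL5 is found at mitochondria and the endoplasmic reticulum. Acsl5 was at 12.3 FPKM with PRP and 11.6 FPKM with vehicle, a ratio of 1.06 (0.970 to 1.15), which did not differ beyond counting error.

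ACSL1 is the main synthetase of mature adipocytes and is known as a PPAR target. Acsl1 was the least abundant of the 4, at 1.60 FPKM with PRP and 1.68 FPKM with vehicle, from 672 and 602 reads, a ratio of 0.950 (0.811 to 1.11). Its summed exons, at 10483 bases, are 2.69 times the length of its main coding transcript, and on the length of that transcript its levels were 4.30 and 4.52 FPKM, still the lowest of the 4. Exons of Acsl1 and Acsl5 overlap antisense genes over 9.91% and 8.31% of their length. The library kit was stranded, but whether the counting used strand is not given in the sources used here.

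**Figure D1:**
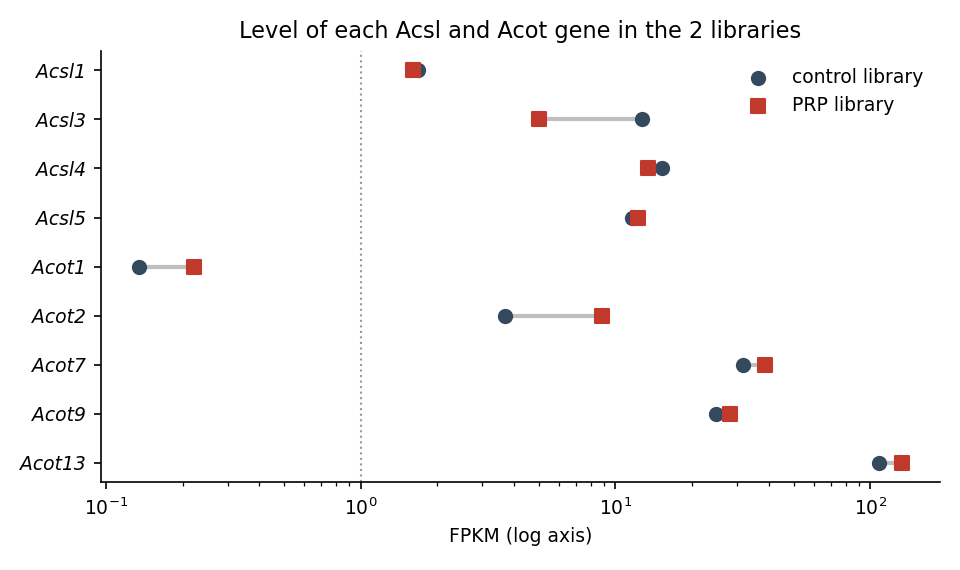
Level of each gene in FPKM (horizontal log axis), with a circle for the control library and a square for the PRP library joined by a line, and 1 library per group. Acsl3 was at 12.7 FPKM in control and 4.99 FPKM in PRP and Acot2 at 3.69 and 8.84 FPKM, Acot1 lay below 1 FPKM (dotted line) in both, and the points of the other genes lay closer together.

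The thioesterases were led by the same gene in both libraries. ACOT13, also called THEM2, is a small thioesterase associated with mitochondria. Acot13 was at 132.8 FPKM with PRP and 108.3 FPKM with vehicle, from 3965 and 2751 reads, a ratio of 1.23 (1.14 to 1.31). ACOT7 is a cytosolic thioesterase known for its abundance in brain and its activity on arachidonoyl-CoA. Acot7 was at 38.6 FPKM with PRP and 31.8 FPKM with vehicle, from 3288 and 2303 reads, a ratio of 1.21 (1.13 to 1.31). ACOT9 is a mitochondrial enzyme. Acot9 was at 28.2 FPKM with PRP and 24.9 FPKM with vehicle, from 2569 and 1930 reads, a ratio of 1.13 (1.04 to 1.23). All 3 were higher in the PRP library beyond counting error, and none reached 1.5-fold. Acot9 has a near copy on chromosome 15, Acot10, with 97.2% coding identity, and 15.2% of the stretches of 50 bases in Acot9 also occur in Acot10, which itself held 4 and 2 reads.

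ACOT2 hydrolyses long-chain acyl-CoA in the mitochondrial matrix and is known to be induced by PPARs. Its level was 8.84 FPKM from 779 reads with PRP and 3.69 FPKM from 277 reads in the control library. The PRP level was the higher one, with a ratio of 2.39 (1.97 to 2.93) and a log2 fold change of 1.07, and Acot2 stood at place 223 from the highest of the 13401 genes. ACOT1 is the cytosolic counterpart. Acot1 was at 0.223 FPKM from 35 reads with PRP and 0.135 FPKM from 18 reads in the control library, a ratio of 1.65 (0.702 to 4.20), so that a difference was not detectable at this depth. Its mean was under 1 FPKM and it entered no count of called genes.

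Shared sequence bears on both copies. Of all stretches of 50 bases in the Acot2 transcripts, 27.7% also occurred in another gene, 24.5% in Acot1, and of those in the Acot1 transcripts 19.2% did, 13.6% in Acot2. Reads that fit several genes may have been dropped or split, which is not given in the sources used here. With the reads of both genes added up, 814 with PRP and 295 with vehicle, the ratio was 2.35 (1.94 to 2.85). Acot2 held 779 and 277 of these reads, so the joint ratio was bound to lie near that of Acot2. Adding up also brings back no dropped reads, so nothing about shared reads is drawn from it. The remaining genes of the cluster lie downstream on the same strand and were looked up after the members' values were seen. Acot4, whose product is a peroxisomal thioesterase, was at 0.317 FPKM with PRP and 0.0878 FPKM with vehicle, from 85 and 20 reads, a ratio of 3.62 (1.79 to 8.08). Acot6 was at 0.443 and 0.361 FPKM, from 114 and 79 reads, a ratio of 1.23 (0.804 to 1.89). Acot3 held 2 reads with PRP and 0 with vehicle, and Acot5 held 0 in both. Within the cluster Acot2 and Acot4 were thus higher in the PRP library beyond counting error, and Acot1 and Acot6 were not.

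**Figure D2:**
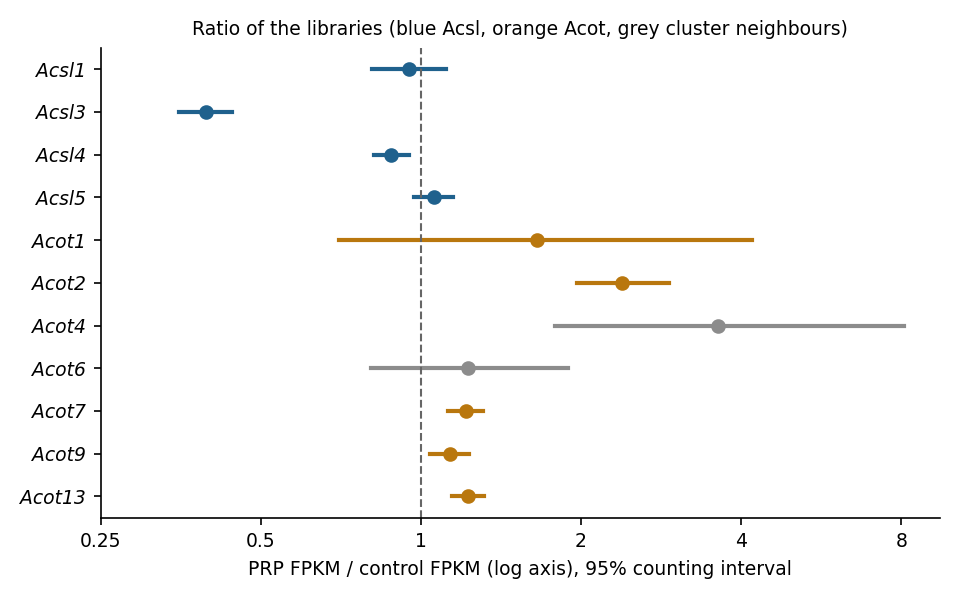
Ratio of PRP to control FPKM (horizontal log axis) for the 9 genes and for Acot4 and Acot6 of the chromosome 12 cluster, with points at the ratio and bars for the 95% counting interval. Acsl3 at 0.394 lay left of the dashed line at 1, Acot2 at 2.39 and Acot4 at 3.62 lay right of it, and the bars of Acsl1, Acsl5, Acot1 and Acot6 crossed it.

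Set against all genes, 8 of the 9 members had a mean FPKM of at least 1. Of these 8, 1 was at least 1.5-fold higher in the PRP library (Acot2), as were 6.15% of the 13401 genes, and 1 was at least 1.5-fold lower (Acsl3), as were 4.57%. The same genes passed 2-fold, which 2% of all genes did upward and 0.828% downward. Since the members were chosen with these values known, nothing is read from their counts. The log2 fold change was above 0 for 5 of the 8 and below 0 for 3, with a median of 0.12 beside a median of 0.01 over all 13401 genes, of which the central 95% lay between -0.74 and 0.89. Of the 13401 genes, 49.1% were below 0. The median was -0.11 over the 4 Acsl genes and 0.28 over the 4 Acot genes that passed the filter. Counting intervals left out a ratio of 1 for 6 of the 9 members, among them Acsl4 and all Acot genes but Acot1. The share of all genes with such an interval was not computed, so this count is not read as a result about the members.

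**Figure D3:**
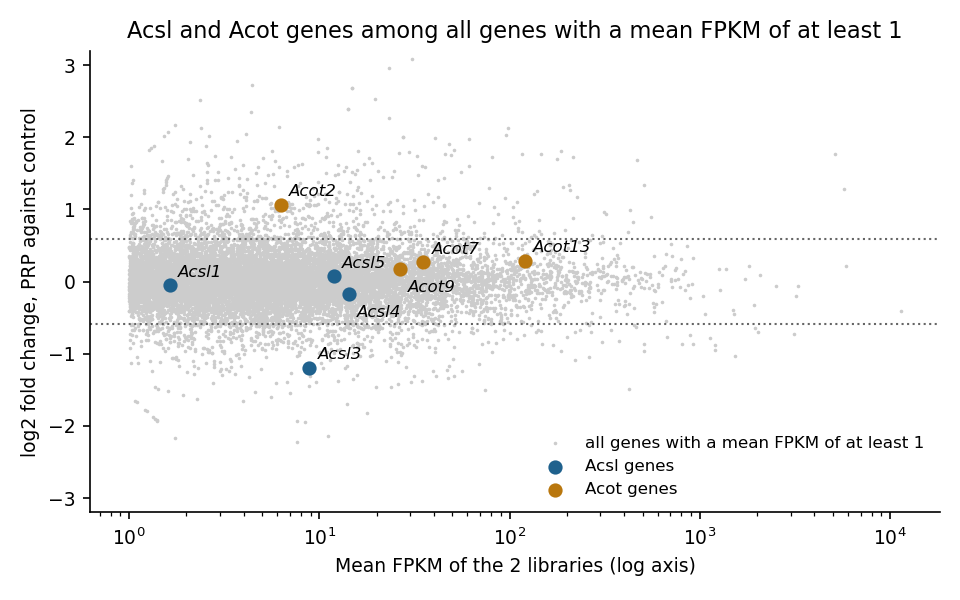
Log2 fold change of PRP against control on the log2(FPKM + 1) scale (vertical) against mean FPKM (horizontal log axis) for 13401 genes in grey, with Acsl genes in blue, Acot genes in orange and dotted lines at 1.5-fold. Acsl3 at -1.19 and Acot2 at 1.07 lay outside the dotted lines, the other 6 members plotted lay between them, and 1 gene lay beyond the plotted range.

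The make-up of the synthetase pool differed between the libraries. The 4 Acsl genes summed to 32.3 FPKM with PRP and 41.2 FPKM with vehicle, a ratio of 0.783 (95% counting interval 0.747 to 0.821). Acsl3 held 15.5% of this sum with PRP and 30.8% with vehicle. At 4.99 and 12.7 FPKM, Acsl3 carried most of the difference between the sums, and the sum without Acsl3 was not computed. Acsl5 held 38.0% against 28.2%, Acsl4 held 41.5% against 36.9%, and Acsl1 held 4.95% against 4.08%. Shares of a sum are tied together, and Acsl5 itself did not differ beyond counting error, at a ratio of 1.06 (0.970 to 1.15). In the control library Acsl4 was 1.20-fold (1.10 to 1.30) above Acsl3, and Acsl3 and Acsl5 did not differ beyond counting error, at a ratio of 1.09 (0.997 to 1.20). In the PRP library Acsl4 was 1.09-fold (1.01 to 1.18) above Acsl5, which was 2.46-fold (2.20 to 2.75) above Acsl3. On the length of 1 coding transcript per gene the last order turned, with Acsl5 at 14.1 FPKM and Acsl4 at 13.7 FPKM in the PRP library, while the place of Acsl3 below both did not.

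Ratios between genes within a library do not depend on how the libraries were scaled. The ratio of Acsl4 to Acsl3 was 2.68 with PRP and 1.20 with vehicle, a 2.24-fold difference (1.95 to 2.57). The ratio of Acsl5 to Acsl3 was 2.46 against 0.916, a 2.68-fold difference (2.33 to 3.11). Acsl3 and Acsl4 are the closest pair among the 4 by sequence, with 67.7% coding identity, followed by Acsl1 and Acsl5 with 64.4%, and the other pairs had 58.2% to 60.0%. At most 3.59% of the stretches of 50 bases in any of the 4 occurred in another gene, that of Acsl3 being with Utp14b, and Acsl4 held no stretch of 50 bases found in another gene.

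The thioesterase pool was larger with PRP and its make-up differed by at most 2.05 percentage points for any gene. The 5 Acot genes summed to 208.7 FPKM with PRP and 168.8 FPKM with vehicle, a ratio of 1.24 (1.18 to 1.30). Acot13 held 63.7% of the sum with PRP and 64.2% with vehicle, Acot7 held 18.5% and 18.8%, and Acot9 held 13.5% and 14.7%. Acot2 held 4.24% against 2.19%, and Acot1 0.107% against 0.0797%. The order was Acot13, Acot7, Acot9, Acot2, Acot1 in both libraries, with every step beyond counting error. Acot9 was 6.73-fold (5.63 to 8.10) above Acot2 in the control library and 3.19-fold (2.84 to 3.58) above it in the PRP library. The ratio of Acot2 to Acot7 differed 1.97-fold between the libraries (1.60 to 2.46) and that of Acot2 to Acot13 1.95-fold (1.59 to 2.43), whereas that of Acot2 to Acot1 differed 1.45-fold with an interval of 0.545 to 3.40. Among Acot7, Acot9 and Acot13 no ratio differed beyond counting error, with 0.991 (0.894 to 1.10) for Acot7 to Acot13 and 0.924 (0.828 to 1.03) for Acot9 to Acot13.

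**Figure D4:**
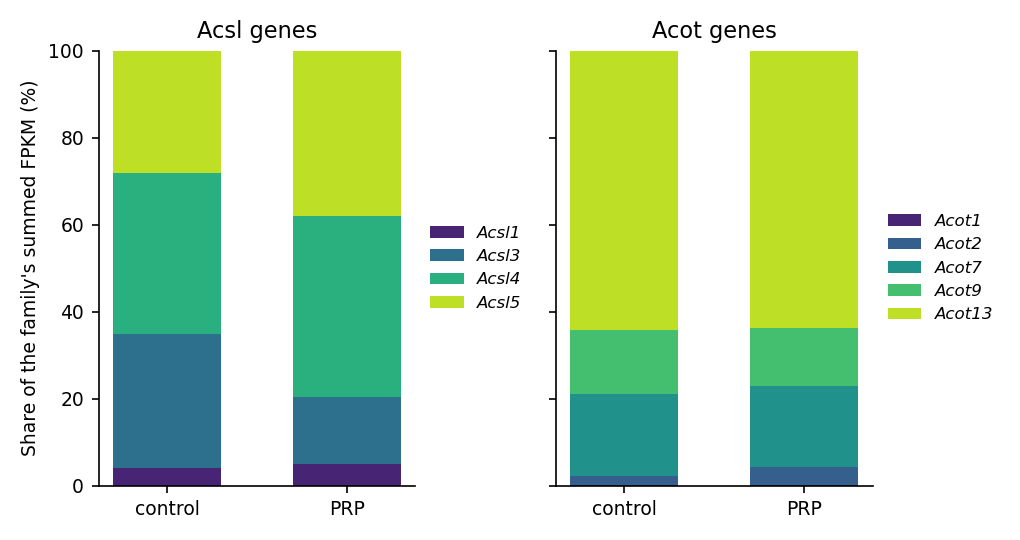
Share of each gene in the summed FPKM of its family (vertical, percent) in the control and PRP libraries, for 4 Acsl genes on the left and 5 Acot genes on the right. Acsl3 took 30.8% of the Acsl sum in control and 15.5% in PRP, while Acot13 took 64.2% and 63.7% of the Acot sum.

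The genes nearest to Acsl3 and Acot2 in log2 fold change were looked up among 77 genes of the acyl-CoA and lipid lists, members included. This set was written with earlier results of these data known. It holds the 20 SREBP-induced genes described below, of which 17 were at least 1.5-fold lower, so its make-up bears on which genes are nearest to Acsl3. With only 2 libraries, likeness here means a similar single difference and nothing about shared control. Nearest to Acsl3 were Sqle, an enzyme of sterol synthesis (log2 fold change -1.08, 6.97 FPKM in PRP and 15.9 FPKM in control), Hmgcs1, an early enzyme of the mevalonate pathway (-1.31, 23.2 and 59.1 FPKM), and Fdps, which makes farnesyl diphosphate (-1.02, 17.4 and 36.4 FPKM). Nearest to Acot2 were Plin2, a coat protein of lipid droplets (1.04, 112.4 and 54.2 FPKM), Soat2, which esterifies cholesterol (0.83, 1.67 and 0.503 FPKM), and Pla2g4a, the cytosolic phospholipase that frees arachidonate (0.73, 19.7 and 11.5 FPKM).

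Genes around the members were then described list by list. Counts at 1.5-fold were taken on the log2(FPKM + 1) scale and read beside the 6.15% of all genes higher and the 4.57% lower. On that scale a gene can miss 1.5-fold although its FPKM ratio is past it. Counts below 0 were read beside the 49.1% of all genes below 0. Of 20 other acyl-CoA synthetases, 19 were measured and 6 had a mean FPKM of at least 1, of which none passed 1.5-fold in either direction, with a median log2 fold change of -0.18. The most abundant was Aacs, which activates acetoacetate, at 20.1 FPKM with PRP and 30.4 FPKM with vehicle, a ratio of 0.662 (0.619 to 0.708). Slc27a3 was at 0.689 and 1.36 FPKM, a ratio of 0.508 (0.325 to 0.782). By FPKM ratio both genes were past 1.5-fold lower. Slc27a4, a fatty acid transport protein with synthetase activity, was at 2.84 and 3.31 FPKM. Acsl6 was at 0.251 and 0.284 FPKM, so that the 4 Acsl members were the long-chain synthetases of that family above 1 FPKM. Of 12 other thioesterases, 1 passed the filter, the peroxisomal Acot8, at 2.57 FPKM with PRP and 2.01 FPKM with vehicle, a ratio of 1.28 (0.934 to 1.76). Acot11 had a mean below 1 FPKM, at 0.564 and 1.19 FPKM.

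Acyl-CoA binding proteins, which carry the product of the synthetases, were below 0 in log2 fold change for 6 of the 6 averaging 1 FPKM or more, the median being -0.17, and 1 was at least 1.5-fold lower. That gene was Scp2, at 51.6 FPKM with PRP and 82.7 FPKM with vehicle. Dbi, the acyl-CoA binding protein itself, was at 92.7 and 135.7 FPKM, a ratio of 0.683, and Acbd3, a Golgi protein, was at 58.9 and 64.8 FPKM. Of 23 enzymes that transfer acyl chains onto glycerol, lysophospholipid and sterol backbones, 14 passed the filter, 1 was at least 1.5-fold higher and 1 at least 1.5-fold lower, with a median of -0.10. The first was Soat2, at a ratio of 3.31 (1.98 to 5.81), and the second was Lpcat3, which puts polyunsaturated chains into phospholipids, at 1.38 and 2.89 FPKM. The most abundant were Gpat4, which starts glycerolipid synthesis, at 19.0 and 17.5 FPKM, and Soat1 at 9.26 and 7.39 FPKM.

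Most genes of mitochondrial entry and oxidation of acyl-CoA had the lower value with PRP. Of 12 genes, 11 passed the filter and none passed 1.5-fold on the log2(FPKM + 1) scale. Below 0 were 10 and above 0 was 1, with a median of -0.20. The lowest log2 fold changes were those of Acadvl, at 9.90 and 14.9 FPKM, and Acadm, at 8.16 and 11.1 FPKM. Their ratios were 0.665 (0.592 to 0.745) and 0.733 (0.659 to 0.816). Acadl, a long-chain acyl-CoA dehydrogenase, was at 41.9 FPKM with PRP and 42.4 FPKM with vehicle. Acot2, also a mitochondrial enzyme, had a log2 fold change of 1.07.

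Genes induced by PPARs, of which Acot1 and Acot2 are known targets, and genes induced by SREBPs, the transcription factors of sterol and fatty acid synthesis, were listed too. These lists were written with earlier results of these data known and share genes with the others. Of 20 PPAR-induced genes, 13 passed the filter, 1 was at least 1.5-fold higher and none lower, with 6 above 0, 7 below 0 and a median of -0.02. The one was Plin2, at a ratio of 2.07 (1.99 to 2.16), and the most abundant other gene was Fabp3, a fatty acid binding protein, at 89.5 and 97.6 FPKM. Of 20 SREBP-induced genes, all 20 passed the filter, 17 were at least 1.5-fold lower and none higher, with a median of -0.84. Largest among them were the differences of Idi1, an isopentenyl diphosphate isomerase (7.31 FPKM in PRP and 28.4 FPKM in control), of Scd2, a fatty acid desaturase (38.5 and 110.5 FPKM), and of Hmgcs1 and Sqle, given above. Scd1, the other main desaturase, was at 88.9 and 149.2 FPKM, and Acly, which makes cytosolic acetyl-CoA, was at 23.3 and 42.1 FPKM. Acss2, an acetyl-CoA synthetase, was the one gene of this list above 0, at 2.15 and 2.10 FPKM.

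Enzymes of polyunsaturated chains, the substrates that ACSL4 prefers, differed in both directions. Of 12 genes, 9 passed the filter, 2 were at least 1.5-fold higher and 3 at least 1.5-fold lower, with a median of -0.05. Ptgs2, the inducible cyclooxygenase, was at 19.3 FPKM with PRP and 5.63 FPKM with vehicle, a ratio of 3.43 (3.09 to 3.82), and Pla2g4a was the other gene higher. The desaturases Fads2 and Fads1 were lower, at ratios of 0.490 (0.456 to 0.526) and 0.544 (0.499 to 0.592), as was Lpcat3. Gpx4, which reduces lipid peroxides, was at 58.8 and 54.9 FPKM, and Ptgs1, the constitutive cyclooxygenase, at 17.4 and 18.0 FPKM. Acsl4 itself, at a log2 fold change of -0.17, lay between these groups.

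**Figure D5:**
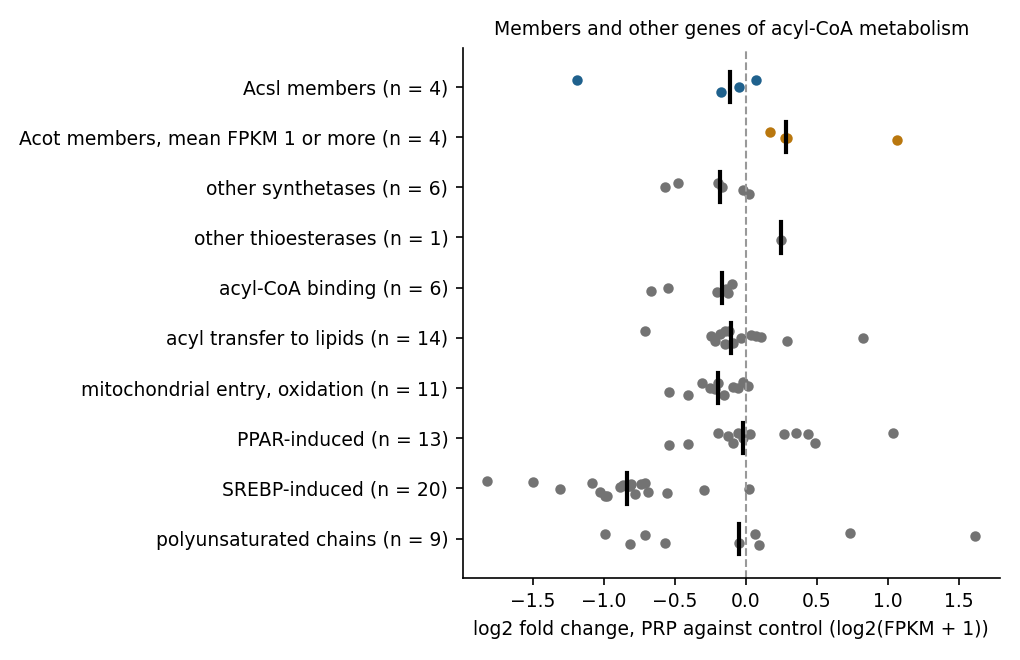
Log2 fold change of PRP against control on the log2(FPKM + 1) scale (horizontal) for genes that averaged at least 1 FPKM, with 1 point per gene, 1 line per list and a black bar at the list's median. The SREBP-induced list had a median of -0.84 and the PPAR-induced list of -0.02, and the medians of the Acsl and Acot members were -0.11 and 0.28.

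The study names let-7f-5p and miR-16-5p among the microRNAs carried by the exosomes, so the longest 3'UTR of each member in M21 was searched for the 7 bases that pair with the seed (bases 2 to 8, in capitals in the RefSeq mature sequences).
mmu-let-7f-5p: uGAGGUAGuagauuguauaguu
mmu-miR-16-5p: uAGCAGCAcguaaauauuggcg
The let-7 site, CTACCTC, was in none of the 9 members and in 11.2% of 10365 genes that had a 3'UTR and averaged at least 1 FPKM. Some of the members' 3'UTRs were short, with 87 bases for Acot13 and 283 for Acot7. The shares over all genes were not matched for length, so nothing is read from the absence. The miR-16 site, TGCTGCT, was held by 27.1% of those genes, and among the members by Acsl1, with 2 sites, and Acsl4, with 1. The first site of Acsl1 began at base 367 of 1571, and the site of Acsl4 at base 1964 of 2684, each shown with 10 bases on either side and the site in capitals.
Acsl1 site: ctgatatgtcTGCTGCTtgctgcgcgt
Acsl4 site: caaggttgggTGCTGCTaattcttcat
Neither Acsl3 nor Acot2 held either site in these 3'UTRs. Acsl1 and Acsl4, which held the miR-16 site, had FPKM ratios of 0.950 (0.811 to 1.11) and 0.880 (0.817 to 0.948). Whether the microRNAs act on any member was not tested.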

How the data were processed

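RNA was extracted with TRIzol and stranded mRNA libraries were sequenced, per the labels. The submitters' processing notes name fastp 0.23.4, STAR 2.5.3a and featureCounts with mm10, and the authors deposited FPKM per gene. The annotation release and the treatment of multimapping reads are not given in the sources used here. Of 44291 genes, 41492 (93.7%) matched GENCODE M21, and with M21 exon lengths 93.8% of genes above 0 gave whole read numbers in the PRP library and the control library (tolerance 0.001 reads), from which the depth was taken. Even read numbers made up 79.3% and 80.3% of those checked among low values, so reads were divided by 2 for intervals.

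Log2 fold changes were log2(PRP FPKM + 1) minus log2(control FPKM + 1), and the pseudocount of 1 understates the change of low genes. Genes averaging at least 1 FPKM were counted. Intervals of ratios of 1 gene and of order were exact Clopper-Pearson 95% intervals, those of summed FPKM came from a normal approximation on the log scale, and those of ratios of ratios from the exact conditional odds ratio. They leave out PCR duplicates. The members and gene lists were chosen with earlier results of these data known. All 9 members are named. Of each other gene list, up to 4 genes past 1.5-fold by size of change and up to 2 more by mean FPKM are named, and for Acsl3 and Acot2 the 3 nearest genes. Marker lists are summarised with their highest gene. A gene that this rule would name is not reported here. Acot3, Acot4, Acot5, Acot6, Acot10, Acsl6, Acss2, Slc27a3, Acadvl, Acadm and the extra markers were named after their values were seen. Coding sequences were compared in place of proteins. Promoters and microRNAs are from RefSeq. Alternatives were pseudocounts of 0.1 and 5, filters of 0 and 5 FPKM, rescaling to a common sum with and without mitochondrial genes and the 50 most abundant genes, centring on the median gene, a 2-fold threshold, sums without the most abundant member, joint Acot1 and Acot2 reads and undivided reads. Both rescalings raised the values of both libraries before the pseudocount of 1 was added, so they also lessened the weight of the pseudocount. The length of 1 coding transcript per gene was added after seeing the data. Python 3.11.15, NumPy 2.4.6, pandas 2.3.3, SciPy 1.17.1, Biopython 1.88 and matplotlib 3.10.9 were used, and the procedures were tested on simulated data.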

Additional observations from a re-analysis of the deposited data

How the results depend on the processing

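Of 64 alternative values, 61 stayed the same, 3 moved and 0 reversed. A ratio stayed the same within its counting interval, and a count within 1.5-fold of the main count. A log2 fold change did so if it shifted by at most the distance from the middle to the end of its interval on the log2 scale. Only Acsl3 and Acot2, the members past 1.5-fold, could be labelled reversed. The ratio of summed Acsl FPKM was 0.726 without Acsl4. With a pseudocount of 5 the log2 fold change was -0.82 for Acsl3 and 0.67 for Acot2, and 0 members then passed 2-fold, while 2 members passed 1.5-fold under every setting run. Over the settings the log2 fold change ranged from -1.33 to -0.82 for Acsl3, from 0.67 to 1.24 for Acot2 and from 0.02 to 0.46 for Acot1. The -1.33 of Acsl3 came from a rescaling, which also lessened the weight of the pseudocount. The scalings moved the median of all genes to between -0.02 and 0.01. Counting intervals of 6 members left out a ratio of 1 with divided and with undivided reads. The share of all genes with such an interval was not computed for either, so nothing is read from this count. No paired analysis was possible because there was a single library per treatment, and for the same reason no replicate could be left out. Depth limits Acot1, with 35 and 18 reads. Reads shared between gene copies, the assignment of overlapping exons and the mitochondrial share of 2.06% and 3.70% were not tested as causes.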
